A study of Mus musculus with 57 samples.

Results

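The genes that build and run the mitotic spindle were followed across 57 single cells labelled as mouse renal vesicle cells. They were chosen by name: every row whose symbol starts with Cenp, which gave 18 genes, and 33 further spindle, checkpoint and mitotic kinase genes, all of which had a row. This made 51 of the 12087 rows of the expression table. The cells came from kidneys of mice carrying the transgene Tg(Crym-EGFP)GF82Gsat on a mixed background, taken at postnatal day 4 (Theiler stage TS27). In these mice EGFP is driven by control sequences of Crym, and cells were isolated by fluorescence-activated sorting, captured on a Fluidigm C1 chip and sequenced one by one. All 57 cells form 1 group from 1 pool of 2 kidneys, with sex given as unknown for 56 cells and as both for 1 cell, and there was no control group. A cell is therefore not a replicate of the group: ranges and SDs are over cells, and no p-value was computed. The labels do not say how many animals gave the 2 kidneys.

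The renal vesicle is the first epithelial stage of the nephron, and it grows while its proximal and distal parts become different. A cell enters mitosis when cyclin B switches on the kinase Cdk1. Chromosomes then attach to spindle microtubules through kinetochores, protein complexes assembled on centromeric chromatin that carries the histone variant Cenpa. The spindle checkpoint holds the cell back until every chromosome is attached, after which the anaphase-promoting complex (APC/C) marks cyclin B for destruction and the midzone proteins guide division of the cell. Transcripts of many of these genes are known to build up in G2 and mitosis through promoter elements called the cell cycle homology region (CHR, TTTGAA or TTCGAA) and the CCAAT box, which NF-Y binds.

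The promoters of the 6 members that followed the other members most closely across cells, and of the 2 that did so least, are shown because they show how unevenly these elements are spread over the group. These 8 were chosen after their values were seen. They are RefSeq promoters on build GRCm38.p6, printed 5′ to 3′ on the gene's strand from 250 bases before to 20 bases after the annotated start. Capitals mark CCAAT or its reverse complement ATTGG, and TTTGAA, its reverse complement TTCAAA, or TTCGAA.
Top2a (chr11:99024170-99024439, minus strand): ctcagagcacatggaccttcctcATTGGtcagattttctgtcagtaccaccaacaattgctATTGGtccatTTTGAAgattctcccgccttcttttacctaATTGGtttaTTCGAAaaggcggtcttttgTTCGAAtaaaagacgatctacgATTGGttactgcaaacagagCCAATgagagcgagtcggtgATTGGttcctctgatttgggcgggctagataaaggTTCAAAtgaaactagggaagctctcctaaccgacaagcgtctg
Racgap1 (chr15:99651637-99651906, minus strand): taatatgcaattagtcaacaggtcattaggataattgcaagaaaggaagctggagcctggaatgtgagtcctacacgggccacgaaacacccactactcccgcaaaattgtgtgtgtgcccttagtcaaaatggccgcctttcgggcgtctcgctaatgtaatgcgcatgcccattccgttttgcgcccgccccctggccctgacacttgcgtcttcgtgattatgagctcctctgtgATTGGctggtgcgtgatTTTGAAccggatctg
Prc1 (chr7:80294201-80294470, plus strand): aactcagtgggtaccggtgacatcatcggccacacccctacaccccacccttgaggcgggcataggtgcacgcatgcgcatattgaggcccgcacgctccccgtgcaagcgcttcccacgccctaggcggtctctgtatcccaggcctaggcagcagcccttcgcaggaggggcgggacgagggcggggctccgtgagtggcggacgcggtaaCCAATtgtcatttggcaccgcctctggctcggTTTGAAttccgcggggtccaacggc
Tacc3 (chr5:33657878-33658147, plus strand): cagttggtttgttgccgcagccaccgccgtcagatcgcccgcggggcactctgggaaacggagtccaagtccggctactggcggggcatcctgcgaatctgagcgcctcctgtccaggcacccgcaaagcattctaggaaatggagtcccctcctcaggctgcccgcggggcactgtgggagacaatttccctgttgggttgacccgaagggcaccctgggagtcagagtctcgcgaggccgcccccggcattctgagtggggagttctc
Ccnb1 (chr13:100786467-100786736, minus strand): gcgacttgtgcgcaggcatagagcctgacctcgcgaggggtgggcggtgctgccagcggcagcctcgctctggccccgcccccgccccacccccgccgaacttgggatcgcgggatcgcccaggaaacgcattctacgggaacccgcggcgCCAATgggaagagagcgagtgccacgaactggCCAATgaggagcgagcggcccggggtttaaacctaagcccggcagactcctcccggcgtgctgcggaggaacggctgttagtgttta
Cdk1 (chr10:69352893-69353162, minus strand): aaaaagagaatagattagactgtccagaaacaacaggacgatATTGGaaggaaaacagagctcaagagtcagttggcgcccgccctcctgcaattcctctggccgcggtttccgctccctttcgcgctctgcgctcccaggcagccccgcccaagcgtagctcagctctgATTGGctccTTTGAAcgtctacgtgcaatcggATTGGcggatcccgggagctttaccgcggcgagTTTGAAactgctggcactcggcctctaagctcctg
Cenpo (chr12:4233946-4234215, minus strand): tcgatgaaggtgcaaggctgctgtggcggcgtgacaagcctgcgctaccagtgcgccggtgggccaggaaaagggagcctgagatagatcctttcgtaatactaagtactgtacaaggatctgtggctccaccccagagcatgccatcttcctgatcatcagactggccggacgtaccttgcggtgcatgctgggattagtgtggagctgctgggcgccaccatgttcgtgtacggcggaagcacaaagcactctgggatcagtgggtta
Cenpv (chr11:62539242-62539511, minus strand): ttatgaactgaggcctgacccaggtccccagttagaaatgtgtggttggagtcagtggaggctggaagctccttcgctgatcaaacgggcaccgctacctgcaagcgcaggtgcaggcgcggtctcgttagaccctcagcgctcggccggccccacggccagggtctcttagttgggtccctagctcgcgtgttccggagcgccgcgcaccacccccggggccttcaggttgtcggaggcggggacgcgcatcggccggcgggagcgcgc

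Top2a held 4 CHR matches and 6 CCAAT boxes in this stretch, the box nearest the start lying 58 bases before it. The CHR letters of Prc1 began 5 bases before the start, those of Cdk1 at 71 and 15 bases before, and those of Racgap1 at base 6 after it. Ccnb1 held CCAAT at 99 and 67 bases before the start and no CHR letters, while Tacc3, Cenpo and Cenpv held neither motif. A match is a run of letters and not a measured binding site, and a missing match says only that the letters are not in this window.

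Of the 51 members, 45 had an entry among the promoters, and the whole windows of 300 bases (250 before to 50 after the start) were searched on both strands, overlapping matches included. TTTGAA or TTCGAA lay in the window of 27 of 45 members (60%), against 21.7% of 27025 genes with a promoter entry. CCAAT was found in 31 members (68.9%), against 41.1% of genes. A window holding both motifs belonged to 24 members (53.3%), against 8.61% of all genes and 7.17% of the 9391 genes of the expression table with an entry. The CHR letters lay close to the start: 26 of 37 matches were within the last 50 bases before it or after it, and the median was 17 bases before. CCAAT boxes lay further out, at a median of 67.5 bases before the start. Some members gave several matches. Positions in the windows of other genes were not computed, so these positions are not shown to be particular to the members. By role, all 6 kinesin promoters in the table and all 3 of Top2a, Ube2c and Cdc20 held CHR letters. Of the 16 Cenp genes other than Cenpe and Cenpf, 5 did. Pbk, Spc24, Ccna2, Aurkb, Tpx2 and Kif20a had no entry.

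Levels are RPKM, a read count scaled to the length of the gene and the size of the library, as deposited by the authors. Detection means RPKM 1 or more. Read counts were not used here. The step between the lowest values put the median depth at an estimated 1.48 M reads per cell (lowest 0.468, highest 2.24), and 2809 to 6502 genes were detected per cell. A single read of a member was worth RPKM 0.0607 to 0.655 at the median depth and up to 2.07, for the short gene Cenpv, in the shallowest cell, so a zero says only that the transcript was not seen at this depth. The nephron transcription factor Pax8 was at RPKM 5 or more in 50 cells, called Pax8-positive here. Another 5 cells (1, 25, 35, 46 and 58) had the macrophage complement gene C1qb at RPKM 1000 or more, with macrophage markers summing to RPKM 7729 to 18817 and 6 nephron markers summing to 10.4 or less. They are called macrophage-like, and the remaining cells, 13 and 53, passed neither level. Levels and detection counts are over all 57 cells, and the main scores and rho values are also given over the 50 Pax8-positive cells.

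Mitotic spindle and kinetochore transcripts were widespread among these cells, and 32 of 51 members (62.7%) were detected in at least 29 cells, against 28.0% of all 12087 rows. The median member was detected in 30 cells (52.6%) and had a mean RPKM of 33.4, against 16 cells (28.1%) and 8.86 for the median row of the table. Detection was uneven from cell to cell: 49 of 51 members were at RPKM 0 in at least 1 cell, and 47 of the 51 reached RPKM 100 in some cell. The same counts over all rows were not computed, so this unevenness is not a trait particular to the members. The median coefficient of variation (SD over mean) was 1.77 for members. It was higher, 2.45, for genes with a mean RPKM of 1 or more and detection in at least 5 cells.

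**Figure D1:**
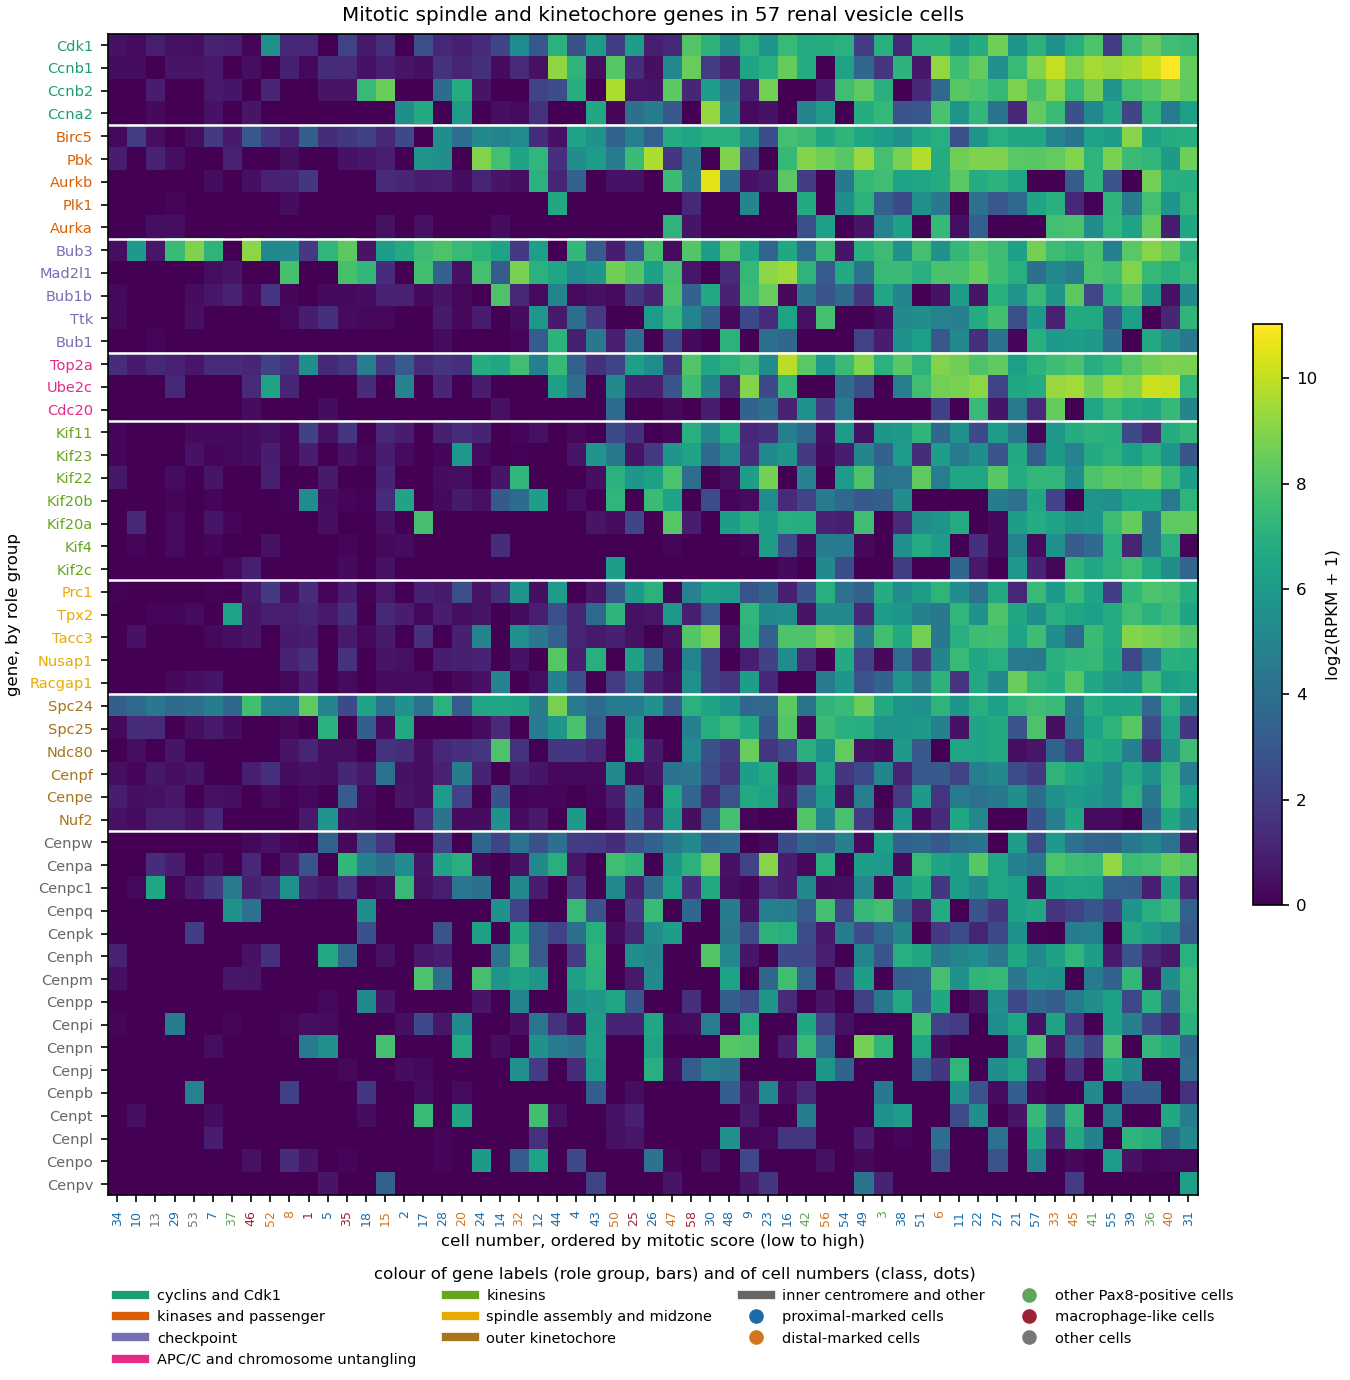
Level of each of the 51 members (rows, grouped by role) in each of 57 cells (columns, ordered by the mean over members), as log2(RPKM + 1). Cell 34, on the left, had 3 members detected and cell 31, on the right, had 48, and Spc24 and Top2a are the rows that stay above 0 in all cells.

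The heat map of members by cell shows the cells as a gradient with no clear break. The number of members detected ranged from 3 in cell 34 to 48 in cell 31, with a median of 28 and quartiles of 15 and 39. There were 8 cells with 7 members or fewer, 13 cells with 8 to 20, 11 with 21 to 30, 13 with 31 to 40 and 12 with 41 or more. A mitotic score was taken as the mean of log2(RPKM + 1) over the 51 members. It ran from 0.25 to 5.70 with a median of 2.69, and the widest gap between neighbouring cells was 0.47. The summed RPKM of the members ranged from 17.5 to 8711. In the 50 Pax8-positive cells the median was 30.5 members with the same extremes of 3 and 48.

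Among the cyclins and their kinase was the member with the highest value in any cell. Ccnb1 (cyclin B1, chromosome 13, 101548694 to 101556441 on build mm9) drives entry into mitosis. Its RPKM ranged from 0 to 2090 with a median of 2.08, its mean was 200 ± 377 (SD, n = 57 cells), and it was detected in 36 cells (63.2%, exact 95% interval 49.3 to 75.6). Few cells were in between: 26 cells had Ccnb1 at RPKM 5 or more, and 21 of these were at 100 or more. The highest was cell 40, ahead of 1176 in the next cell. Ccnb2, the second B-type cyclin, was detected in 32 cells and ranged from 0 to 815 with a median of 3.84. Cdk1 itself was more evenly spread, from 0 to 389 with a median of 39.9 and detection in 45 cells (78.9%, interval 66.1 to 88.6). Ccna2, the cyclin of S phase and G2, was found in 30 cells with a median of 2.11, and its highest value, 625, was in cell 30. All 4 genes were detected together in 19 cells and none of them in 7.

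Among mitotic kinases and their partners, the inhibitor-of-apoptosis family protein Birc5 (survivin), which anchors the chromosomal passenger complex, was the most widely detected. Birc5 was found in 50 cells, from RPKM 0 to 528 with a median of 36.9. Pbk, a kinase active in mitosis, was higher where present, from 0 to 864 with a median of 66.8 and a mean of 183 ± 225, in 40 cells. Aurkb, the kinase of the same complex as Birc5, was detected in 30 cells with a median of 1.2, and cell 30 stood alone at 1537, ahead of 412 in the next cell. Plk1 and Aurka, kinases of centrosome and spindle assembly, were the sparsest of the group. Plk1 was detected in 21 cells (36.8%, interval 24.4 to 50.7) and reached 213, and Aurka in 14 cells (24.6%, interval 14.1 to 37.8) and reached 334, both in cell 36 and both with a median of 0.

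The spindle checkpoint genes fell into a broad and a sparse set. Bub3, which binds phosphorylated kinetochores, was detected in 49 cells, from RPKM 0 to 549 with a median of 128. Mad2l1, the protein that inhibits Cdc20, was found in 42 cells, from 0 to 685 with a median of 107. Bub1b (BubR1), found in 32 cells, had a median of 1.14 and reached 356, and the kinase Bub1 was the least detected of the group with 23 cells, a median of 0.13 and a highest value of 138. Bub3 was high also in cells with few other members: cell 46 held its highest value and had 7 members detected.

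Top2a, Ube2c and Cdc20 act on untangling the chromosomes and on the APC/C. Top2a, the topoisomerase that decatenates sister chromatids (chromosome 11, 98854261 to 98885503), was above RPKM 0 in all 57 cells, and 54 of them had it at 1 or more (94.7%, interval 85.4 to 98.9). Its RPKM ran from 0.595 to 934 with a median of 75.7 and a mean of 141 ± 181, and 26 cells were at 100 or more. Ube2c, the ubiquitin-conjugating enzyme of the APC/C, was detected in 35 cells, from 0 to 1130 with a median of 3.62. Cdc20, the activator of the APC/C in mitosis, was narrow: 18 cells (31.6%, interval 19.9 to 45.2), a median of 0 and a highest value of 345 in cell 33. These 3 genes thus ran from a member above 0 in every cell to one that most cells lacked at this depth.

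**Figure D2:**
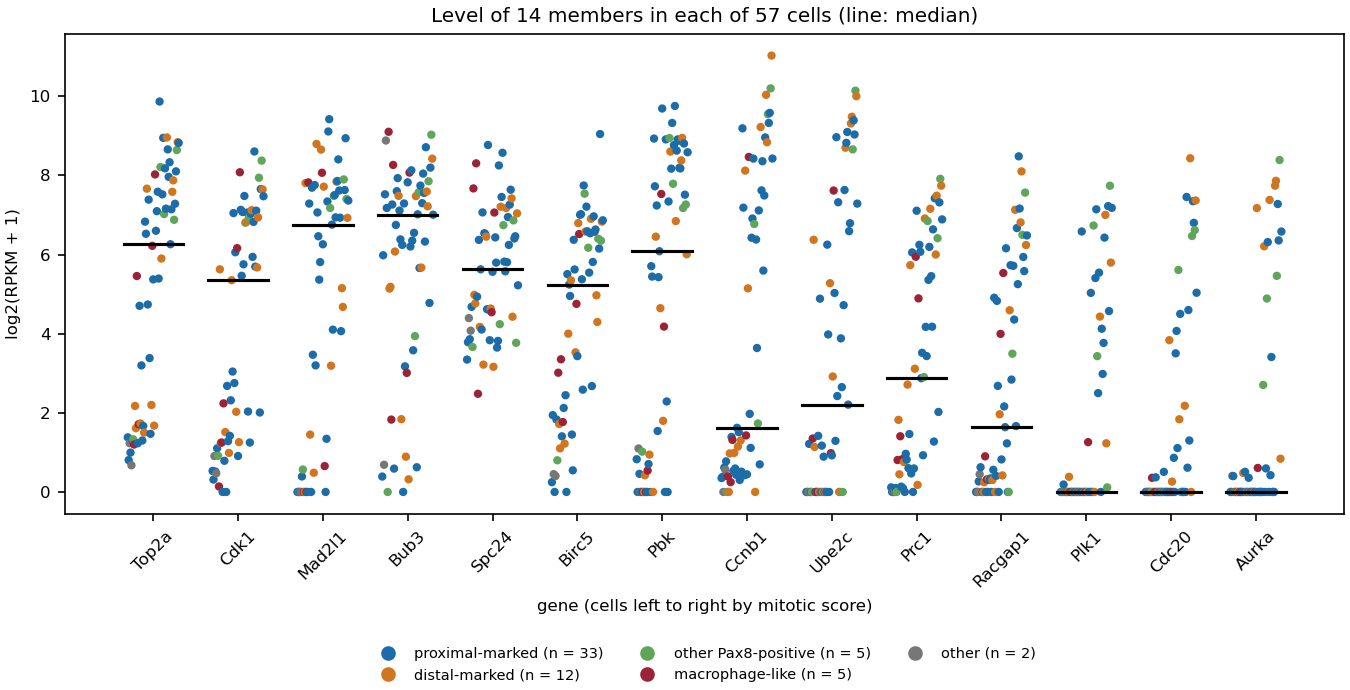
Level of 14 members in each of 57 cells as log2(RPKM + 1), with cells placed left to right by mitotic score within each gene, coloured by marker class, and a line at the median. Top2a, Mad2l1, Bub3 and Spc24 have high medians, while the medians of Plk1, Cdc20 and Aurka are at 0.

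Kinesins, the motors of the spindle, were detected in 14 to 31 cells, and 7 cells had all 7 while 14 cells had none. Kif11, which slides spindle microtubules apart, was detected in 31 cells, from RPKM 0 to 158 with a median of 1.37. Kif23, of the centralspindlin complex, was found in 30 cells and reached 136 with a median of 1.71. Kif22, a chromosome-arm motor, was found in 29 cells and had the highest mean of the kinesins, 75 ± 113. Kif2c, a microtubule depolymerase at centromeres, was the least detected with 14 cells, a median of 0 and a highest value of 202 in cell 39.

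The 5 spindle assembly and midzone genes were the most alike in how many cells held them, 30 to 35. Prc1, the bundler of midzone microtubules, was detected in 35 cells, from RPKM 0 to 240 with a median of 6.34. Tpx2, which activates Aurka on the spindle, was found in 33 cells with a median of 1.69 and a highest value of 250. Tacc3, which links microtubules of the kinetochore fibre, was found in 32 cells with a median of 9.55 and reached 498. Racgap1, the partner of Kif23 in centralspindlin, was found in 30 cells with a median of 2.11 and reached 357. All 5 were detected together in 21 cells and none in 11.

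The kinetochore and other Cenp genes held both the most and the least widely detected members. Spc24, a subunit of the Ndc80 complex that grips microtubules, was the only member detected in all 57 cells, with RPKM from 4.58 to 435 and a median of 48.4. Its complex partner Spc25 was detected in 35 cells with a median of 7.80 and reached 286. Ndc80 was found in 34 cells with a median of 1.91 and reached 352, and Nuf2 in 24 cells with a median of 0.70 and reached 261. The 4 subunits of 1 complex thus ranged from 24 to 57 cells. Spc24 was also high in some cells where most members were not detected. In macrophage-like cells 1 and 46, with 15 and 7 members detected, it was at 315 and 203.

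A set of 16 Cenp genes, all but Cenpe and Cenpf, was taken by name and is labelled inner centromere and other in the figures. In this set Cenpw was detected in 37 cells at low level, from RPKM 0 to 74.9 with a median of 5.42. Cenpa, the centromeric histone variant, was found in 36 cells with a median of 27.9 and reached 610, the highest of the 16 genes in this set. Cenpc1, which reads Cenpa nucleosomes, was found in 35 cells with a median of 2.11 and reached 176. Cenpv was the least detected member of all, in 7 cells (12.3%, interval 5.08 to 23.7), with 74.9 in cell 31 and at most 18.1 elsewhere. The other 12 were detected in 11 to 32 cells, and no cell had all 16.

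The members followed each other across cells. Each was set against the score of the other members, and Spearman's rho was 0.5 or more for 37 of 51 (72.5%), against 1.15% of 10032 other genes set against the full score. All 51 members passed the filter on these genes, a mean RPKM of 1 or more and detection in at least 5 cells. The highest values belonged to Top2a (0.824), Racgap1 (0.789), Prc1 (0.785), Tacc3 (0.782), Ccnb1 (0.777) and Cdk1 (0.765). The lowest belonged to Cenpv (0.145), Cenpo (0.207), Nuf2 (0.228) and Bub3 (0.250), and 1 member, Cenpv, was at 0.2 or less (1.96%, against 71.6% of other genes). Over the 50 Pax8-positive cells the count was 33. These rho values share the libraries of the same 57 cells and their depth, so they are descriptions of these libraries.

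A value that moved with the score was the number of other genes detected in the cell. Its rho with the score was 0.722 (Pearson's r 0.700, and rho 0.698 without the 2 cells farthest from the median), and 0.690 in Pax8-positive cells. With the rank of that number regressed out, 17 of 51 members (33.3%) stayed at 0.5 or more, against 0.419% of other genes. Top2a (0.778), Cdk1 (0.745), Prc1 (0.733) and Tacc3 (0.712) stayed above 0.7, while Nuf2 (-0.03) and Cenpt (-0.02) were near 0. The estimated depth itself had a rho of 0.344 with the score. The part that the number of detected genes has in these values was not tested beyond this adjustment.

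**Figure D3:**
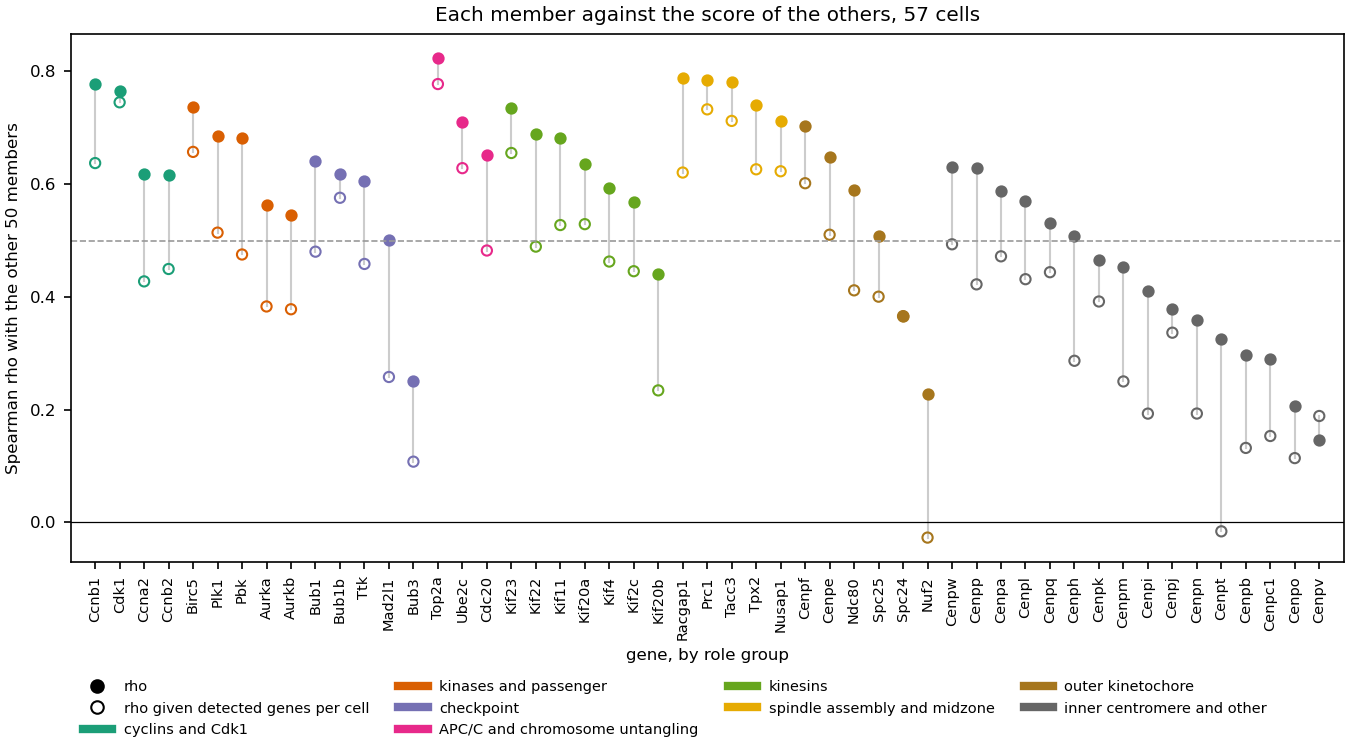
Spearman's rho of each member with the score of the other members over 57 cells, by role group: filled points as measured and open points with the number of detected genes regressed out. Top2a is highest in both (0.824 and 0.778), and the spindle assembly and midzone genes stay above 0.6 in both.

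By role, spindle assembly and midzone genes had the highest median rho with the other members (0.782). The Cenp genes other than Cenpe and Cenpf had the lowest (0.431). The set of 24 members with both promoter motifs in a window had a median rho of 0.636 and the other 21 with an entry 0.501, with ranges of 0.250 to 0.824 and 0.145 to 0.782. The ranges overlap almost fully: Tacc3, with neither motif, was at 0.782, and Bub3, with both, at 0.250.

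Among the 1275 pairs of members the mean rho was 0.335, and it was 0.203 with detected genes regressed out and 0.318 in Pax8-positive cells. Of these pairs, 1245 were above 0 and 240 were at 0.5 or more, both without that adjustment. Pairs of other genes were not computed, so these values have no background beside them. The highest pairs joined Cdk1 with Tacc3 (0.816), Ccnb1 with Ube2c (0.781), Cdk1 with Prc1 (0.767) and Cdk1 with Top2a (0.767). Pairs within a role group averaged 0.282 and pairs between groups 0.344, so pairs of a shared role were not the closer ones on average. The first mean is weighted toward the largest group, the 16 Cenp genes other than Cenpe and Cenpf. That group had the lowest median rho with the other members (0.431). Pairs of spindle assembly and midzone genes, by contrast, ran from 0.545 to 0.708.

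Subunits of 1 complex lay on both sides of this mean of 0.335. Within the Ndc80 complex, rho was 0.454 for Spc25 with Ndc80, 0.378 for Spc24 with Spc25, 0.283 for Ndc80 with Nuf2, 0.250 for Spc24 with Ndc80, 0.103 for Nuf2 with Spc25 and 0.038 for Nuf2 with Spc24. In Pax8-positive cells the same 6 pairs ran from 0.066 to 0.465. The checkpoint proteins Mad2l1 and Bub3 had a rho of -0.04. Bub3 was at 0.009 with Bub1b and at 0.138 with Bub1. Partner pairs examined among Cenp genes other than Cenpe and Cenpf ran from 0.076 (Cenpi with Cenpk) to 0.538 (Cenpp with Cenpq), with Cenpt and Cenpw at 0.157. Some other partners were closer: 0.653 for Ccnb1 with Cdk1, 0.653 for Cenpe with Cenpf, 0.580 for Kif23 with Racgap1, 0.550 for Ube2c with Cdc20 and 0.532 for Aurkb with Birc5. The pairs named here are examples from a longer list of partners. Tpx2 and Aurka were at 0.418.

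Some genes were nested within others in the cells that held them, in pairs chosen after their values were seen. At RPKM 20 or more, Cdc20 was present in 11 cells. All 11 were among the 25 cells with Ccnb1 at that level, which made up 43.9% of the 57. At RPKM 1 or more the nesting was not complete: 17 of 18 cells with Cdc20 were among the 36 with Ccnb1 (63.2%). Plk1 was at RPKM 20 or more in 14 cells, all of them among the 36 cells with Top2a at that level (63.2% of the 57), and 12 of the 14 also had Ccnb1. Of the 25 cells with Ccnb1, 22 had Top2a, while 14 cells had Top2a without Ccnb1. Ndc80 (16 cells) and Nuf2 (15 cells) met in 9, which is 56.3% of the first and 60% of the second.

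**Figure D4:**
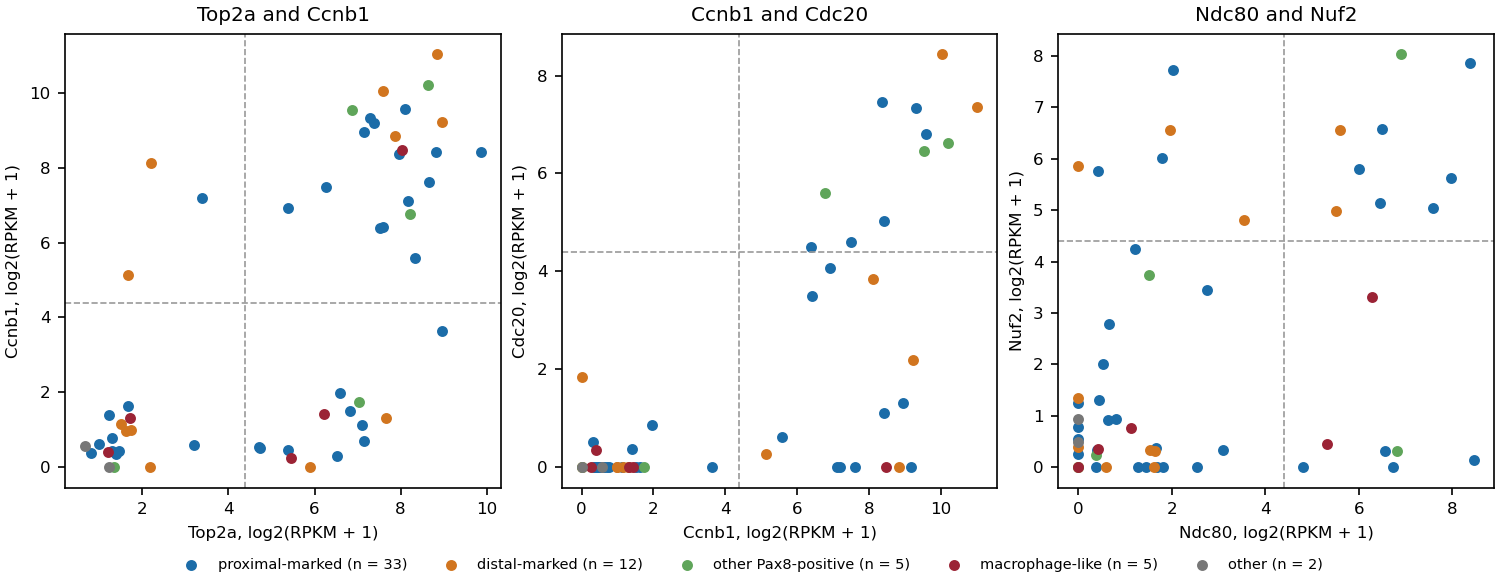
Levels of Top2a and Ccnb1, of Ccnb1 and Cdc20 and of Ndc80 and Nuf2 in each of 57 cells, as log2(RPKM + 1), with dashed lines at RPKM 20 and colours for marker class. No cell lies in the corner with Cdc20 at 20 or more and Ccnb1 below it, whereas Ndc80 and Nuf2 have 7 and 6 cells with either gene alone.

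Other genes of the cell cycle were taken from lists and set against the mitotic score of the members. The score of 27 other kinetochore and spindle genes with a row, of 29 listed, had a rho of 0.893 (0.816 given detected genes and 0.901 in Pax8-positive cells). A second list of 16 genes, regulators of mitotic entry with the proliferation marker Mki67, had a score at 0.906 (0.816 and 0.902). In the first list 13 of 27 genes were at 0.5 or more. The most widely detected were Nsl1 (56 cells, rho 0.081), Zwint (47 cells, 0.20) and Pmf1 (45 cells, 0.431), and the least was Kifc1 (8 cells, 0.319). Nsl1 and Pmf1 belong to the Mis12 complex, which joins the Ndc80 complex to the centromere. In the second list 6 of 16 genes were at 0.5 or more, and the median gene was at 0.356. Its most widely detected genes were Cks1b (52 cells, 0.723) and Cks2 (49 cells, 0.637), small partners of Cdk1, and Mki67 (36 cells, 0.645). The phosphatase Cdc25b was detected least (9 cells, 0.226).

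Condensin and cohesin genes, which shape and hold chromosomes, had a list score at 0.809 (0.764 in Pax8-positive cells) with 5 of 13 genes at 0.5 or more. Condensin genes ran from 0.306 (Ncaph2, 45 cells) to 0.757 (Smc2, 52 cells). Cohesin genes ran from 0.144 (Smc3, 54 cells) to 0.433 (Smc1a, 53 cells), so the 2 ranges overlapped. Ncaph, the condensin subunit detected in fewest cells (27), was at 0.535. The score of 5 cytokinesis genes was at 0.758 (0.760 in Pax8-positive cells), with Anln at 0.589, Ect2 at 0.621, Cep55 at 0.435 and Kif13a, the least detected (11 cells), at 0.292. A list of 12 core subunits of the APC/C and its activator Fzr1 was less close: 0 of 13 genes reached 0.5, and their list score of 0.524 (0.456 in Pax8-positive cells) became 0.075 given detected genes. Anapc13, Anapc5 and Cdc16 were detected in 50, 49 and 45 cells, and Anapc7 and Fzr1, the least detected, in 19 cells each, against 18 for the activator Cdc20.

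The genes of DNA replication were widely detected but only loosely tied to the mitotic score. The score of 23 S phase genes had a rho of 0.407 with it (Pearson's r 0.416, and rho 0.341 without the 2 cells farthest from the median). This became 0.265 in Pax8-positive cells and 0.030 with detected genes regressed out. No S phase gene reached 0.5, and the 3 most widely detected, Tyms (56 cells), Rrm2 (52 cells) and Slbp (49 cells), were at 0.252, 0.496 and 0.207. The least detected, the cyclin Ccne1 (5 cells), was at 0.294. By role, the Cenp genes other than Cenpe and Cenpf had the highest rho with the S phase score (0.522, and 0.265 given detected genes). Mitotic kinases with Birc5 were close (0.507 and 0.211). Cyclins with Cdk1 (0.257 and -0.11) and Top2a, Ube2c and Cdc20 (0.254 and -0.07) had the lowest. The difference between these role groups was not tested.

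**Figure D5:**
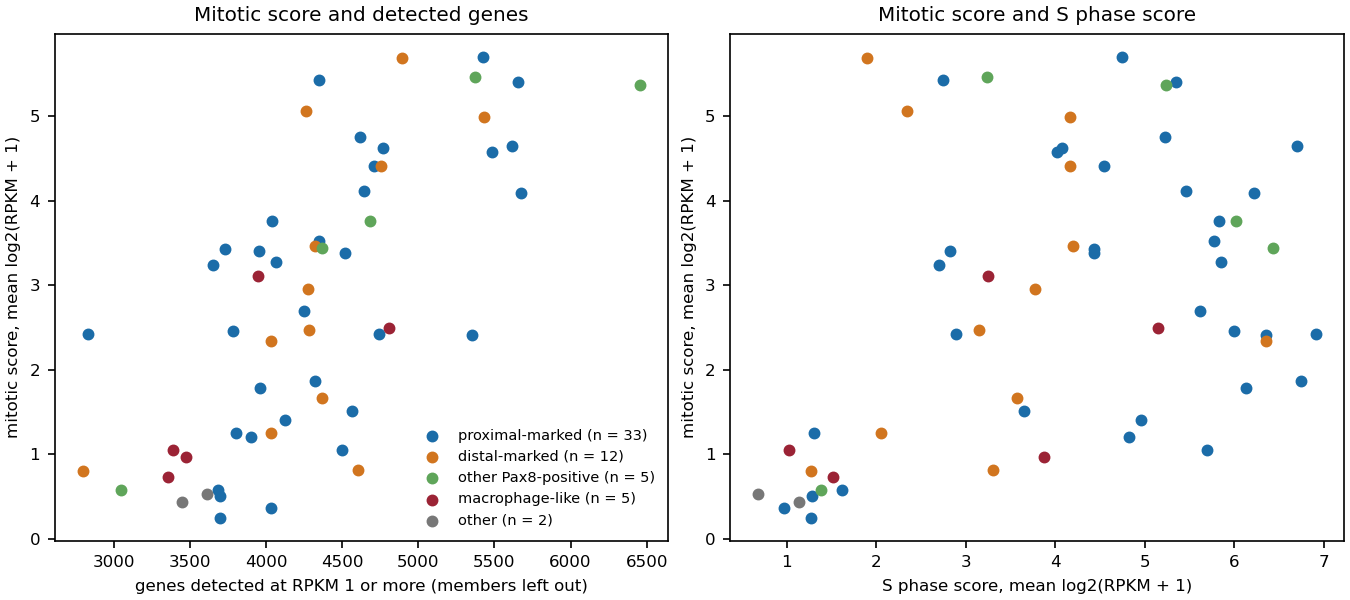
Mitotic score of each of 57 cells against the number of other genes detected (left) and against the S phase score (right), coloured by marker class. The left panel rises (rho 0.722), while in the right panel cells with S phase scores above 5 span mitotic scores from about 1 to over 5 (rho 0.407).

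G1 cyclin and kinase genes had a list score at 0.527 (Pearson's r 0.499, 0.538 in Pax8-positive cells and 0.343 given detected genes). Ccnd1, the cyclin D of early G1, was at 0.575 and was detected in 55 cells, while its kinase Cdk4 (57 cells) was at 0.285, Ccnd2 (31 cells) was at 0.182 and Cdk6 (4 cells) at 0.118. The CDK inhibitors were at 0.188 as a list, and Cdkn1c (p57), detected in 44 cells, was at -0.04. Cdkn1b (27 cells) was at 0.307, Cdkn2d (18 cells) at 0.192 and Cdkn2c (2 cells) at 0.012.

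Genes close to the mitotic score, among 10032 tested non-members, ran from 0.761 to 0.680. They were Tuba1c, Hmgb2, Gm6682, Smc2, Hmmr, Tuba1b, Cks1b, Cdca8, Sgol1, Aspm, Rangap1, Cdca3, Spag5 and Kpna2, and 7 of them stood on the lists above. The alpha-tubulins Tuba1c (0.761) and Tuba1b (0.730) were detected in all 57 cells. Tuba1c had a median RPKM of 440 and Tuba1b of 1075, so their likeness is one of level and not of presence. At the other end stood Calcoco1 (-0.58, 17 cells), Synpo (-0.46, 5 cells), 6030446N20Rik (-0.44, 7 cells), Pdlim2 (-0.44, 10 cells) and Bnip3 (-0.41, 8 cells), most of them sparse.

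The mitotic score had close means in cells with proximal and with distal markers. Proximal-marked cells had Pax8 at RPKM 5 or more, Wt1 at 20 or more and both Sox9 and Pou3f3 below 20 (33 cells), and distal-marked cells had Pax8 with Sox9 or Pou3f3 at 20 or more and Wt1 below 20 (12 cells). The mitotic score was 2.91 ± 1.59 (SD over cells; range 0.25 to 5.70, median 3.24) in the first and 2.99 ± 1.73 (range 0.80 to 5.69, median 2.72) in the second. The difference of -0.09 was well under the SD, and the cells of both classes overlapped over nearly the whole range. In mean log2(RPKM + 1), 7 members were lower by at least 1 in proximal-marked cells (13.7%, against 9.64% of 10083 genes) and 4 were higher (7.84%, against 8.72%).

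Single members had larger differences, described here without a test. Spc25 ranged from RPKM 0 to 286 with a median of 55.1 in proximal-marked cells, where 25 of 33 had it, and from 0 to 182 with a median of 0.226 in distal-marked cells, where 4 of 12 had it, a difference of 2.33 in mean log2(RPKM + 1). Cenpm went the same way, with medians of 20.6 and 0 and a difference of 1.87. Cenpf went the other way, with a median of 1.14 (0 to 107) against 20.6 (0.281 to 160) and a difference of -2.30, as did Aurka, with medians of 0 and 0.592 and a difference of -2.16. The ranges of both classes overlapped for all 4 genes. The authors' deposited table of genes that differ between a proximal and a distal class held 3 of 51 members (5.88%, against 6.52% of 12064 symbols). In the authors' deposited table Spc25 had a fold of 7.84 and Ttk of 6.95 toward the proximal class, and Cenpf had a fold of -6.46, toward the distal class. Ttk differed by 0.26 between the marker classes used here. Those classes rest on cells of the same libraries as the authors' classes, so the 2 sources are not independent.

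Macrophage-like cells held fewer spindle transcripts than Pax8-positive cells. Cells 1, 25, 35, 46 and 58 had 15, 29, 15, 7 and 30 members detected, against a median of 30.5 and a range of 3 to 48. Their score was 1.67 ± 1.06 (n = 5 cells) against 3.01 ± 1.65 (n = 50 cells), and all 5 values lay within the range of the Pax8-positive cells. In mean log2(RPKM + 1), 33 of 51 members were lower by at least 1 (64.7%, against 29.3% of 10083 genes) and 1, Cenpa, was higher (1.96%, against 14.1%). The median member differed by -1.41 and the median gene by -0.50. Macrophage-like cells also had fewer genes detected, a median of 3474 against 4334, and after a linear fit of the score on detected genes the difference in score of -1.34 became -0.38. Ccnb1 was at RPKM 353 in cell 58 and at 0.187, 1.69, 1.49 and 0.312 in cells 1, 25, 35 and 46. Cenpa was at 6.21, 147, 157, 1.42 and 137 in cells 1, 25, 35, 46 and 58, so 3 of the 5 cells were high.

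Some members carry a limit of counting. The library kit keeps no strand, and exons of 14 members overlap another gene, among them Ccna2 with Exosc9, Cdc20 with Elovl1, Tacc3 with Tmem129 and Prc1 with Rccd1, so reads of both genes cannot be told apart there. Ccnb1 matches 3 processed pseudogenes at 97.3% to 99.2% identity over about 52% of its longest transcript, and Pbk matches 1 at 95.4%, so their levels are uncertain to the extent that reads were split.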

How the data were processed

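RNA of 57 single cells was measured in 1 group. The authors deposited RPKM values, with the number of cells above RPKM 3 per gene, and, in a smaller table of 787 genes in 28 cells, a signed score that gives the fold of the proximal over the distal cells, per the file headers. Its formula is not stated in the sources used here. The count of cells above RPKM 3 matched the values in all 12087 rows. Per the submitters' processing notes, TopHat 1.4.1, DESeq and build mm9 were used, with no role given, and gene coordinates are those of the deposited table. RefSeq promoters are on GRCm38.p6.

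The members and lists were chosen with earlier results of these data known. Detection was RPKM 1 or more. The 95% intervals are Clopper-Pearson (exact) and cover only which cells of the pool were sampled. Scores are means of log2(RPKM + 1). Spearman's rho was computed over 57 cells for genes with mean RPKM 1 or more detected in at least 5 cells, and again on ranks with the rank of detected genes (members left out) regressed out. This step was tested on simulated data. Depth was estimated from the RPKM of a single read with GENCODE transcript lengths. Near-identical copies (95% identity over 30% of the transcript) were sought with BLAST 2.17.0. Python 3.11.15, pandas 2.3.3 and scipy 1.17.1 were used.

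Members named with values are, in each role group, the 3 detected in most cells and the 1 detected in fewest, with groups of 4 or fewer named whole. Non-members named are the 15 genes with the highest rho with the score, the 5 with the lowest, and 3 and 1 of each pathway list. Genes named outside this rule, among them Plk1, Cenpm, Cenpe, Cenpf, Cenpo, Cenpt and Ttk, were chosen after their values were seen. A gene that the rule takes is not reported here. Protein sequences were not used here.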

Additional observations from a re-analysis of the deposited data

How the results depend on the processing

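Of 38 values recomputed under another setting, 30 stayed within the tolerance (1 SD over cells, the binomial interval of a share, 0.1 for rho, 1.5 times for a count), 8 moved and none changed sign. The SD over cells is a wide tolerance, so large shifts can stay within it. The score difference of macrophage-like minus Pax8-positive cells, -1.34, became -0.38 after the linear fit on detected genes. The median of 28 members per cell became 37 with detection above 0. Both count among the 30. So does the mean rho over every member with a row, which used the same 51 members as the main value and could not differ from it. The median share of cells over members was 52.6% and became 73.7% with detection above 0. The mean rho between members, 0.335, became 0.203 given detected genes and 0.207 given detected genes in Pax8-positive cells, and 17 in place of 37 members reached rho 0.5. The rho of the mitotic score with the S phase score, 0.407, became 0.265 in Pax8-positive cells and 0.0305 given detected genes, that with the G1 cyclin score, 0.527, became 0.343 given detected genes, and that with detected genes, 0.722, became 0.613 with detection above 0. The cause of these shifts was not tested. Leaving out members with exon overlap (mean rho 0.328) or near-identical copies (0.326) changed little. In promoter windows from 100 bases before the start, 25 in place of 27 of 45 members held CHR letters. The share of all genes was 9.87% in place of 21.7%. Some alternatives were chosen after seeing the data. These were the ones on exon overlap, copies, promoter windows, the macrophage-like cells and the linear fit on detected genes. They also included the count of members at rho 0.5 and the G1 cyclin rho given detected genes. The mean rho given detected genes in Pax8-positive cells was another. No paired analysis was possible because all cells form 1 group. With 1 pool, the spread between animals is unknown.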

Other observations

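Several cells departed from the general order of the members and were chosen after their values were seen. Cell 44 had 2833 other genes detected, among the fewest of all cells, and 24 members, yet Ccnb1 was at RPKM 583 and Cdk1 at 131, and Spc24 was at its highest, 435. Cell 16 held the highest Top2a, 934, with Ccnb1 at 343 and Cdk1 at 178, while Plk1 was at 0. Cell 49 had Top2a at 494 and Plk1 at 140 with Cdk1 at 3.09 and Ccnb1 at 11.5. Cell 55 had 45 members detected, with Ccnb1 at 641, Plk1 at 149 and Cdc20 at 162, but Cdk1 at 3.02. Cell 4, a proximal-marked cell, had the highest S phase score of all, 6.91, with a mitotic score of 2.42. Cell 40 had the highest Ccnb1, 2090, and a mitotic score of 5.69 with an S phase score of 1.90.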
